A study of Xenopus laevis with 115 samples.

Results

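Ectoderm of cloned Xenopus laevis embryos was compared with that of embryos from in vitro fertilisation (IVF). The comparison used 23 of the 115 samples of the series: 12 libraries of nuclear-transfer (NT) ectoderm whose donor embryos had received only the solvent DMSO, and 11 libraries of IVF ectoderm. They were chosen by sample title, and each title also gives an experiment number from 1 to 3. Experiment 1 held 4 NT and 4 IVF libraries, experiment 2 held 3 and 3, and experiment 3 held 5 and 4. Libraries are named below by group, experiment and library number, so that NT 3-5 is the fifth NT library of experiment 3.

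All groups were wild type, and all ectoderm was taken at gastrula stage 11. Donor nuclei came from endoderm of IVF embryos kept in DMSO from the gastrula to neurula stage 18. The labels do not give the number of embryos behind a library, so p-values measure the spread between these libraries, part of which may be technical. Both groups were sequenced as poly(A) RNA from 400 ng of total RNA with 50 bp reads, per the labels.

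In nuclear transfer a nucleus of a differentiated cell is placed in an egg, whose factors reprogram it as the embryo cleaves. Part of the donor cell's expression pattern can outlast this step, and part of the new tissue's pattern may fail to switch on. Gastrula ectoderm of Xenopus, the animal cap, gives rise to epidermis and nervous system, while the donor endoderm gives rise to gut. A tissue made in both ways therefore shows how far an NT embryo departs from a fertilised one, how alike that departure is between rounds of the experiment, and how much libraries of 1 group differ.

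The deposited values were expected counts, the reads assigned to each target sequence of a transcript set. Total counts per library ran from 10352221 to 24923622. The 72076 targets carry Xenbase identifiers, and 0 of them were found in the table of gene names at hand, so the files do not pair them with symbols and transcripts are given by identifier. The labelled tissue could not be checked against ectoderm or endoderm markers for the same reason. Targets as long as ribosomal RNA subunits, 9 in all, took 4.72% to 11.12% of the counts in NT libraries and 1.425% to 5.315% in 10 of the IVF libraries. IVF 3-1 stood apart from them with 17.39%. Within experiment 1, NT 1-1 stood apart on the first principal component, which held 20.2% of the variance. It lay at 63.7 against -37.1 to -9.2 for the other NT libraries of experiment 1. The NT libraries of experiments 2 and 3 lay at 17 to 94.9 and all IVF libraries at -67.5 to -4.2. NT 1-1 was thus among the other NT libraries, and the rest of its group lay in the IVF range.

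NT ectoderm differed from IVF ectoderm in a large share of its transcripts. With the experiment as a block, 7669 of 24916 transcripts tested passed an adjusted p-value of 0.05 (edgeR quasi-likelihood test, Benjamini-Hochberg), which is 30.8% of them. Of these, 4071 were higher (16.3%) and 3598 lower (14.4%) in NT ectoderm. Most differences were small: the median absolute log2 fold change was 0.52 among the called transcripts and 0.25 over all tested. A log2 fold change of at least 1 was reached by 839 of the transcripts called higher (3.37% of all tested) and 405 of those called lower (1.63%). Full separation of the groups was rare, since all 12 NT libraries lay above all 11 IVF libraries for 203 transcripts and below them for 43, together 0.987% of those tested.

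Transcripts called higher in NT ectoderm were longer. Those called lower were more abundant, but not among log2 differences of at least 1. The median target length was 2354 bases for the 4071 higher transcripts, 1716 bases for the 3598 lower ones and 1629 bases for those not called. Their median levels were 7.9, 47 and 6.64 CPM, reads scaled to a common library total. Among calls with a log2 fold change of at least 1, the 839 higher transcripts had a median of 4.07 CPM. The 405 lower ones had 4.33 CPM, beside 8.81 CPM over all tested. Calls were made for 11.4% of transcripts at or under 1 CPM and for 57.8% of those above 100 CPM. The part that the different share of ribosome-sized targets played in these values was not tested. A fit without those targets called 7628 transcripts in place of 7669, but it removes only the targets themselves and does not test that part.

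The clearest differences held in every library. XBmRNA52478, a target of 2471 bases, had 5.54, 9.9 and 17.8 CPM as the lowest, median and highest of the NT libraries. In IVF libraries its values were 0.624, 1.22 and 2.27 CPM. The lowest NT library therefore lay above the highest IVF library, and the log2 fold change was 2.98 (SE 0.2, adjusted p = 1.9e-08, edgeR). It reached 2.91, 3.66 and 2.65 in experiments 1, 2 and 3. The 6 libraries of DMSO donor endoderm held it at 0 to 0.789 CPM, below most IVF ectoderm, so the transcript was high neither in the donor tissue nor in the fertilised target tissue.

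XBmRNA59261, of 5948 bases, ranged from 18.5 over a median of 22.1 to 39.1 CPM in NT libraries and from 6.86 over 8.46 to 9.73 CPM in IVF libraries. The groups again did not overlap, and the log2 fold change was 1.55 (SE 0.11, adjusted p = 2.16e-08, edgeR). The donor endoderm held 7.35 to 11.5 CPM of it, a range that overlapped the IVF ectoderm.

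The clearest falls were smaller. XBmRNA38350, of 856 bases, had 8.64, 11.8 and 16.2 CPM as the lowest, median and highest NT values and 19.2, 27 and 46.9 CPM in IVF libraries. Its log2 fold change was -1.18 (SE 0.13, adjusted p = 6.4e-06, edgeR), and here experiment 2 gave the smallest difference, with -0.63 against -1.55 and -1.2 in experiments 1 and 3. XBmRNA70247, of 868 bases, had 5, 12.8 and 17.4 CPM in NT libraries and 19.3, 23.2 and 31.7 CPM in IVF libraries, and its log2 fold change was -1.08 (SE 0.12, adjusted p = 8.23e-06, edgeR). For both, every NT library lay below every IVF library. The donor endoderm held XBmRNA38350 at 36.3 to 60.2 CPM, above the IVF median and overlapping the upper end of the IVF range, and XBmRNA70247 at 10.2 to 19.3 CPM, overlapping the NT range.

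**Figure D1:**
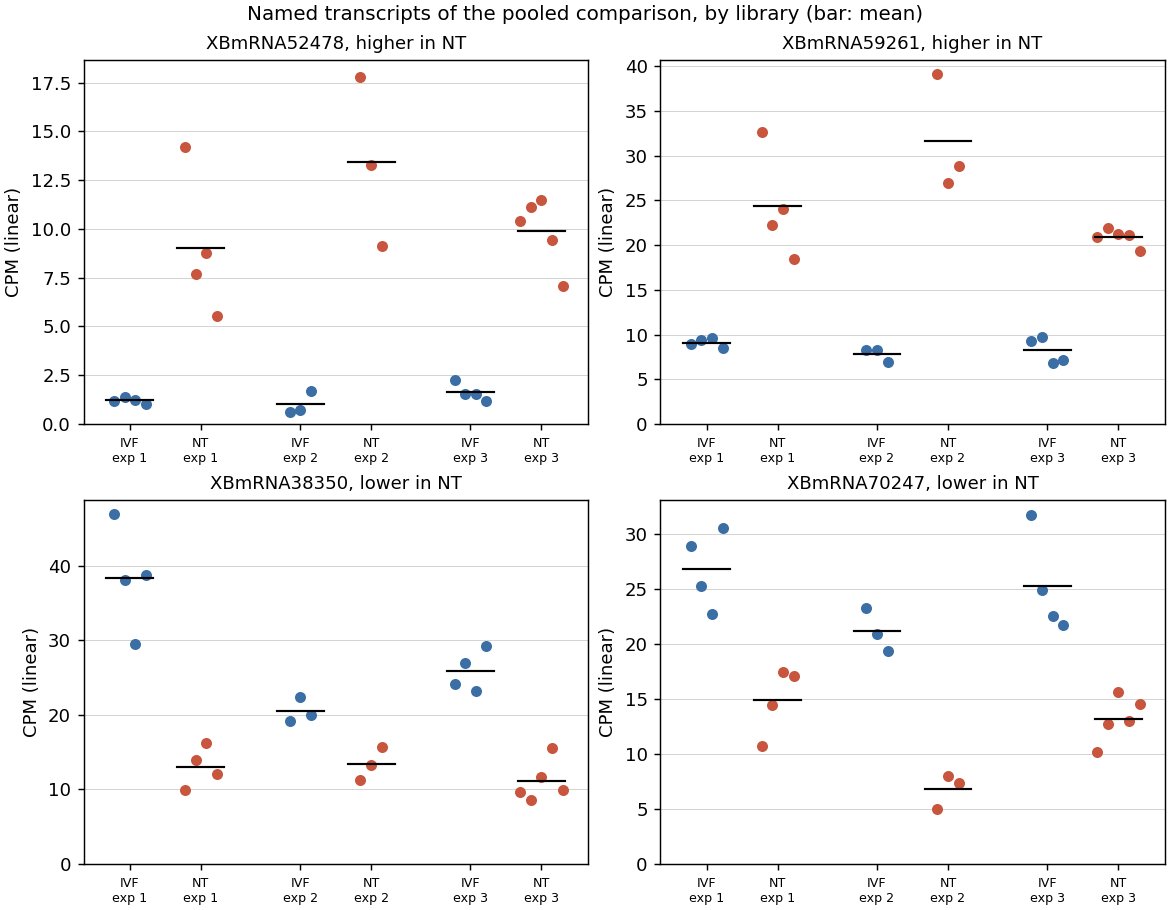
Level in CPM on a linear axis of the 2 higher and 2 lower transcripts in each of the 23 libraries, by experiment, with IVF in blue, NT in red and the group mean as a bar. In all 4 panels the NT and IVF points do not overlap, and XBmRNA52478 sits between 5.54 and 17.8 CPM in NT libraries against 0.624 to 2.27 CPM in IVF libraries.

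These 4 were the first of 279 higher and 38 lower transcripts with a log2 difference of 1 or more, a mean of at least 5 CPM and the same direction with an unadjusted p under 0.05 in each of the 3 experiments. The rule used the same libraries as the pooled test, so the agreement of the experiments for these transcripts is a description.

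The size of the NT difference was not the same in the 3 experiments. Fitted alone, experiment 1 called 491 of 24252 transcripts (2.02%), 326 higher and 165 lower. Experiment 2 called 5672 of 24818 (22.9%), 2867 higher and 2805 lower, although it had the fewest libraries. Experiment 3 called 1173 of 26610 (4.41%), 698 higher and 475 lower. The number of calls depends on the spread as well as on the size of a difference. The median absolute log2 fold change was 0.23, 0.52 and 0.25 in experiments 1, 2 and 3. The median SE was 0.215, 0.309 and 0.201, and a larger SE also raises the median of absolute values. The part this played in the 0.52 was not tested. A joint fit of the 23 libraries with 1 estimate of the spread called the NT difference for 952 transcripts (3.82%) in experiment 1, 9392 (37.7%) in experiment 2 and 866 (3.48%) in experiment 3. That estimate is shared by the 3 experiments, so it does not follow differences in spread between them. The part this played in the 9392 was not tested.

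The counts within experiments changed strongly when 1 library was left out. Omitting NT 1-4, NT 2-3 or NT 3-5 raised the count of its experiment, to 669, 6036 and 1680. Every other omission lowered it. An omission also leaves fewer libraries to test with, and the part this played in the falls was not tested. In experiment 1 the count fell to 8 without IVF 1-1, 16 without NT 1-2, 27 without IVF 1-2, 55 without IVF 1-4, 79 without IVF 1-3, 113 without NT 1-3 and 287 without NT 1-1. In experiment 2 it fell to 1685 without IVF 2-3, 3250 without NT 2-2, 3330 without NT 2-1 and 3421 without IVF 2-2. In experiment 3 it fell to 90 without IVF 3-4, 209 without IVF 3-2, 247 without NT 3-2, 309 without IVF 3-1, 388 without NT 3-3, 501 without NT 3-1 and 571 without IVF 3-3. With 1 library fewer, experiment 2 still called more transcripts than experiment 3 called in full. The pooled count moved less, between 6488 and 8515 over all 23 omissions, but was 4553 without the whole of experiment 2.

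A direct test of the difference between experiments, the interaction of group and experiment in edgeR, called 2201 of 24916 transcripts (8.83%). Experiment 2 gave the largest absolute NT effect for 2007 of them, or 91.2%, against 64.9% of all transcripts tested. Pairwise, the NT effect differed between experiments 2 and 1 for 2520 transcripts (10.1%) and between experiments 3 and 2 for 2738 (11%), but between experiments 3 and 1 for only 21 (0.0843%). The interaction count was 745 without IVF 2-3, 1398 without IVF 3-1, 1303 without IVF 3-2, 479 without NT 2-1 and 3840 without NT 1-1.

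In experiment 2 both groups lay away from their counterparts in the other experiments. For the 2201 transcripts, the IVF mean of experiment 2 was a median of 0.667 log2 units from the IVF mean of the other 2 experiments, and the NT mean was 0.555 log2 units from its own counterpart. The same distances were 0.402 and 0.341 for experiment 1 and 0.367 and 0.343 for experiment 3. Over all transcripts tested they were 0.356 and 0.336 in experiment 2, against 0.282 and 0.281 in experiment 1 and 0.276 and 0.26 in experiment 3. The IVF group was the one further away for 57% of the 2201 transcripts in experiment 2, 56% in experiment 1 and 53.3% in experiment 3, beside 52.3%, 50% and 53.2% of all transcripts tested. These distances carry no sign and describe transcripts that the interaction chose, so they do not give the share of either group in the NT effect.

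For both leading transcripts of the interaction, IVF libraries differed more between experiments than NT libraries did. XBmRNA30760 (gene XBXL10_1g16383) had 23.3, 20.4 and 23.6 CPM in the IVF libraries of experiment 2. All other IVF libraries held 74.6 to 119 CPM, and all NT libraries held 73.4 to 125 CPM. Its log2 NT effect was -0.07, 1.85 and 0.09 in experiments 1, 2 and 3 (interaction adjusted p = 2.04e-06, edgeR). The 3 IVF libraries of experiment 2 are the ones that stand low, and the NT libraries of the 3 experiments overlap.

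XBmRNA63270 (gene XBXL10_1g33527) had 25.8, 17.7, 21.2 and 20.3 CPM in the IVF libraries of experiment 1, 2.81, 2.19 and 2.51 CPM in those of experiment 2 and 5.52, 6.09, 6.41 and 4.4 CPM in those of experiment 3. In NT libraries it had 10.3, 8.11, 6.62 and 9.01 CPM, then 11.6, 10.4 and 9.65 CPM, then 5.29, 5.67, 6.3, 5.5 and 6.75 CPM. The IVF libraries fell into separate ranges by experiment, further apart than the NT libraries. The log2 NT effect was -1.32, 2.05 and 0.09 (interaction adjusted p = 1.47e-06, edgeR), so its sign changed between experiments 1 and 2. Over the 2201 transcripts the sign differed between the experiments for 57.3%, against 49.3% of all transcripts tested.

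Agreement in direction between experiments was partial over all transcripts and high among those called. No library is shared between experiments, so the 3 sets of effects are separate measurements. What else differed between the experiments is not given in the labels and cannot be told apart from the experiment number. Across the 24916 transcripts, Pearson's r between NT effects was 0.33 for experiments 1 and 2, 0.34 for 1 and 3 and 0.37 for 2 and 3, and Spearman's rho was 0.41, 0.44 and 0.44. Without NT 1-1, which stood apart from the other NT libraries of experiment 1, rho was 0.221 for experiments 1 and 2 and 0.31 for 1 and 3. Transcripts are not independent replicates, and these coefficients are given as a description. The effects had the same sign for 65.8%, 68.7% and 66.8% of transcripts in these pairs.

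Of the 24916 transcripts of the pooled test, 443 were called in experiment 1, 5476 in experiment 2 and 1238 in experiment 3. The overlaps below are to be read beside these counts. Experiments 1, 2 and 3 called 2.02%, 22.9% and 4.41% of the transcripts tested in their own fits. Experiments 1 and 2 shared 226 calls, which is 51% of those of experiment 1 and 4.13% of those of experiment 2, and 216 of them had the same sign. Experiments 1 and 3 shared 174, or 39.3% and 14.1%, with 172 of the same sign. Experiments 2 and 3 shared 677 of the 5476 calls of the former and 54.7% of those of the latter, with 671 of the same sign. Transcripts called in experiment 3 had the same sign in experiment 1 for 95.6% and in experiment 2 for 92.8%. Those called in experiment 1 had it for 84.7% and 87.6% in experiments 2 and 3. Those called in experiment 2 had it for 79.8% and 82.4% in experiments 1 and 3.

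**Figure D2:**
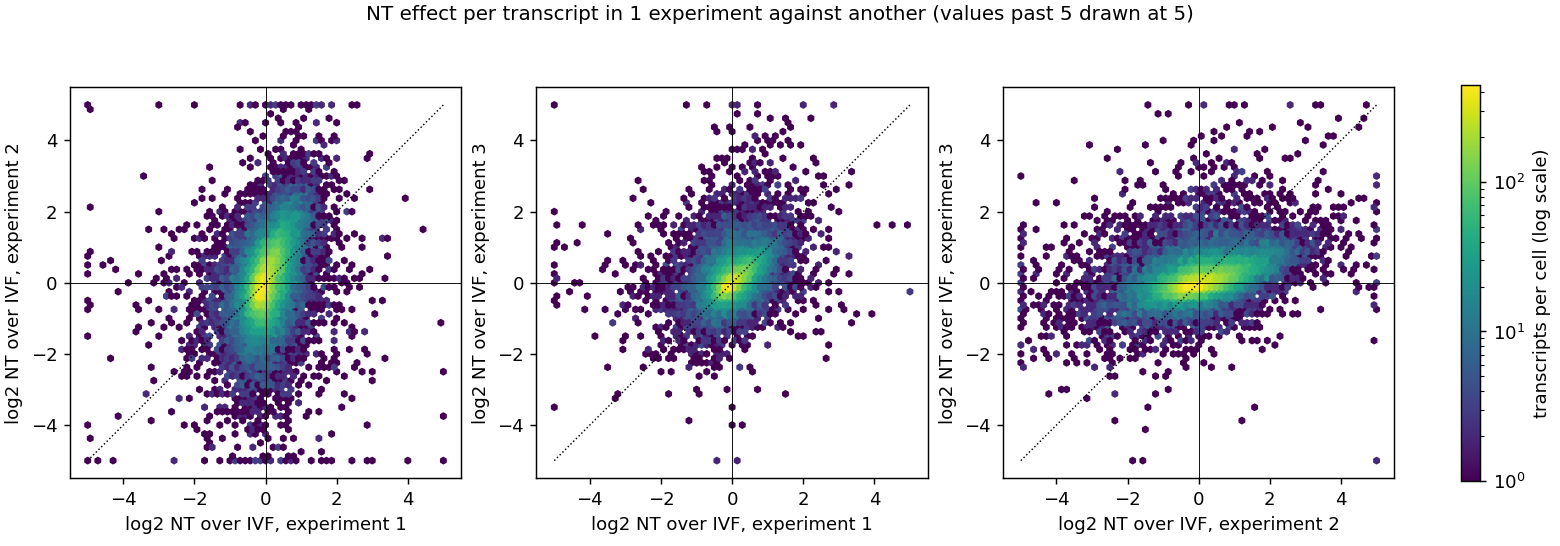
Log2 NT effect of each transcript in 1 experiment against another, with the number of transcripts per cell on a log colour scale and the line of equal effects dotted. The clouds are stretched along the axis of experiment 2, whose median absolute effect was 0.52 against 0.23 and 0.25 in the others.

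Effect sizes were measured again with libraries that had no part in choosing the transcripts. Transcripts called with a log2 difference of 1 or more in 2 experiments were looked up in the one left out. In experiment 1, the 1254 higher transcripts had a median log2 effect of 0.78, with 91.1% above 0, and the 539 lower ones had -0.48, with 20.4% above 0. The median over all transcripts there was 0.01, with 50.9% above 0. In experiment 2, the 407 higher transcripts had a median of 1.97 and the 177 lower ones -1.33, with 89.4% and 15.3% above 0, beside 0.01 over all. In experiment 3, the 1176 higher ones had 0.73, with 97% above 0, and the 410 lower ones -0.58, with 17.1% above 0, beside 0.03 over all.

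The lists had medians of 1.23 to 1.33 and -1.43 to -1.4 in the fits that chose them. A list chosen by its size tends to be larger in the libraries that chose it, so little is read from these medians. The higher list looked up in experiment 2 went the other way, with 1.23 in its fit and 1.97 in experiment 2. All other lists had medians smaller in size in the experiment left out. In the test of the experiment left out, 143 of the 1254 were called higher and 3 lower. The counts were 241 and 5 of the 407, and 378 and 0 of the 1176. Over all transcripts looked up, 1.1%, 11% and 3.08% were called higher in experiments 1, 2 and 3. Of the lower lists, 18 of 539, 78 of 177 and 34 of 410 were called lower, and 0, 3 and 2 higher, beside 0.569%, 10.7% and 2.08% called lower over all transcripts.

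A score for each library, the mean log2 CPM of the higher list minus that of the lower list relative to the IVF mean of the experiment, showed how single libraries departed. In experiment 1 the NT libraries scored 2.85, 1.16, 0.43 and 0.52, and the IVF libraries -0.32, 0.11, 0.67 and -0.46. Here the groups overlapped: NT 1-3 and NT 1-4 scored below IVF 1-3, and NT 1-1 scored far above the other NT libraries. In experiment 2 the NT libraries scored 3.69, 2.9 and 2.2 against 0.54, -0.4 and -0.15. In experiment 3 they scored 1.53, 1.57, 1.29, 0.92 and 1.77 against 0.36, 0.22, -0.05 and -0.53. In experiments 2 and 3 every NT library lay above every IVF library, and the NT scores of experiment 2, which rest on another list, lay above those of experiment 3.

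**Figure D3:**
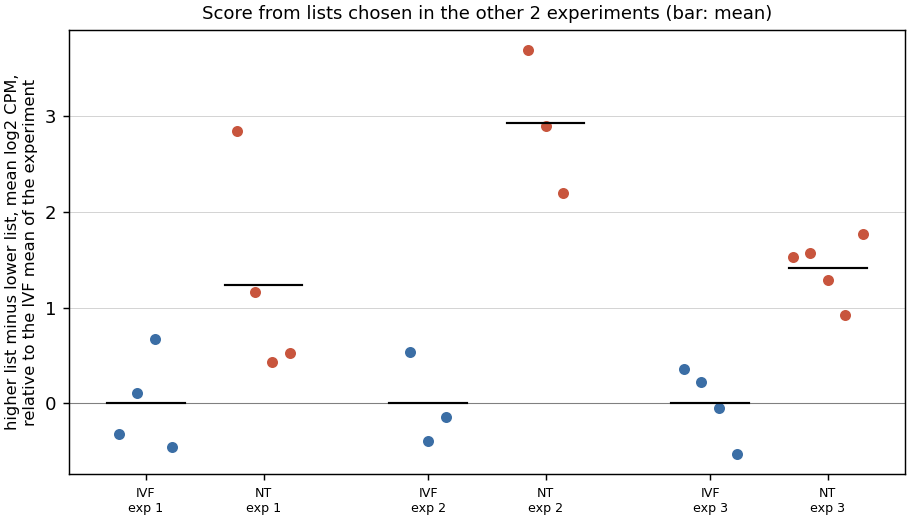
Score of each library from lists chosen in the other 2 experiments, in log2 units relative to the IVF mean of its own experiment (IVF blue, NT red, bar at the mean). NT and IVF points overlap in experiment 1, where NT 1-1 reaches 2.85, and are apart in experiments 2 and 3.

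The donor tissue was set beside the NT difference without sharing libraries: transcripts higher or lower in the 6 DMSO donor libraries than in the IVF libraries of 2 experiments were looked up in the NT effect of the third. Transcripts higher in donor endoderm had a median log2 NT effect of 0.11 in experiment 1 (4737 transcripts, 62.1% above 0) and 0.14 in experiment 3 (5434 transcripts, 64% above 0). In experiment 2 the median was -0.08 (5150 transcripts, 46.3% above 0). Those lower in donor endoderm had -0.04, 0.13 and -0.03 in experiments 1, 2 and 3, with 45.1%, 57.9% and 46% above 0. The medians over all transcripts were 0, 0 and 0.02. Experiment 2 thus stood the other way round from experiments 1 and 3 in both lists, and whether the lists differ between experiments was not tested.

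Read beside those over all transcripts, most counts of calls went the same way. In experiment 3, 204 of the 5434 donor-high transcripts were called higher in NT ectoderm and 45 lower, beside 648 and 468 of all 23512 tested. In experiment 1, 96 of 4737 were called higher and 29 lower, beside 310 and 151 of all 22778. The share called lower there, 0.612%, was near the 0.663% over all. In experiment 2, 491 of 5150 were called higher and 845 lower, beside 2726 and 2711 of all 23327. Of the donor-low transcripts, 60 of 5656 were called higher and 51 lower in experiment 1. The counts were 947 and 406 of 6118 in experiment 2, and 124 and 140 of 5705 in experiment 3.

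Libraries outside the comparison gave a further look at the called transcripts. In the first experiment of the companion inhibitor series, 5 NT libraries whose donors had received A486, a compound the labels do not describe further, were compared with 4 IVF libraries, and 5840 of 20627 transcripts were called (28.3%). The companion files use another set of target sequences, and of the 839 higher transcripts only 51 were tested there with the same identifier and length. Their median log2 effect was 0.84, with 82.4% above 0, against 0.19 and 60.9% over all 1817 such transcripts, and 20 were called higher and 1 lower. Over all 1817, 372 were called higher (20.5%) and 147 lower (8.09%). Of the 405 lower transcripts 50 could be looked up, with a median of -0.28, 40% above 0, and 4 called in each direction, no more than the share over all 1817 that were called. With all shared identifiers, whatever their length, the medians were 0.4 and -0.66 over 406 and 235 transcripts. Of 41837 shared identifiers, 13555 had the same length in both target sets. No median over all transcripts of this wider set is at hand, so its medians are not read as agreement.

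NT libraries lay further from one another than IVF libraries on average, a difference that missed the threshold of the exact test. The spread of a library was the median absolute log2 difference of its transcripts from the mean of the other libraries of its group and experiment, corrected for their number. In experiment 1 it was 0.3087, 0.1647, 0.2069 and 0.2799 for NT libraries and 0.18, 0.1457, 0.2065 and 0.1846 for IVF libraries. In experiment 2 it was 0.283, 0.1783 and 0.3079 against 0.2729, 0.27 and 0.1999. In experiment 3 it was 0.1939, 0.1791, 0.1722, 0.1898 and 0.2639 against 0.1759, 0.1476, 0.1707 and 0.177. The groups overlapped in experiments 1, 2 and 3 alike, and the high values in NT ectoderm came from NT 1-1, NT 1-4, NT 2-1, NT 2-3 and NT 3-5.

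The mean spread was 0.227 ± 0.0564 (SD, n = 12) in NT and 0.194 ± 0.0426 (SD, n = 11) in IVF libraries. The difference of these means over all libraries was 0.034 (two-sided exact permutation of labels within experiments, 176400 arrangements, p = 0.0628). Exact means that every arrangement was counted. The spread values stayed fixed, and each was measured from the other libraries of its group and experiment. Such values depend on one another, which the permutation p-values do not allow for. Within experiments the exact permutation p was 0.171 (smallest possible 0.0286) for 0.24 ± 0.066 against 0.179 ± 0.0251 in experiment 1, 0.8 (smallest possible 0.1) for 0.256 ± 0.0688 against 0.248 ± 0.0414 in experiment 2 and 0.0794 (smallest possible 0.00794) for 0.2 ± 0.0369 against 0.168 ± 0.0138 in experiment 3. The call depended on the libraries: the exact permutation p was 0.0309 without IVF 2-1, 0.0322 without IVF 2-2, 0.031 without NT 1-2, 0.00425 without NT 2-2, 0.0493 without NT 3-2 and 0.0446 without NT 3-3. The difference was 0.0186 without experiment 1 (exact permutation p = 0.277), 0.0439 without experiment 2 (exact permutation p = 0.0345) and 0.0394 without experiment 3 (exact permutation p = 0.167). Without NT 1-1 and IVF 3-1, which stood apart within their groups and experiments, it was 0.0223 (exact permutation p = 0.133).

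**Figure D4:**
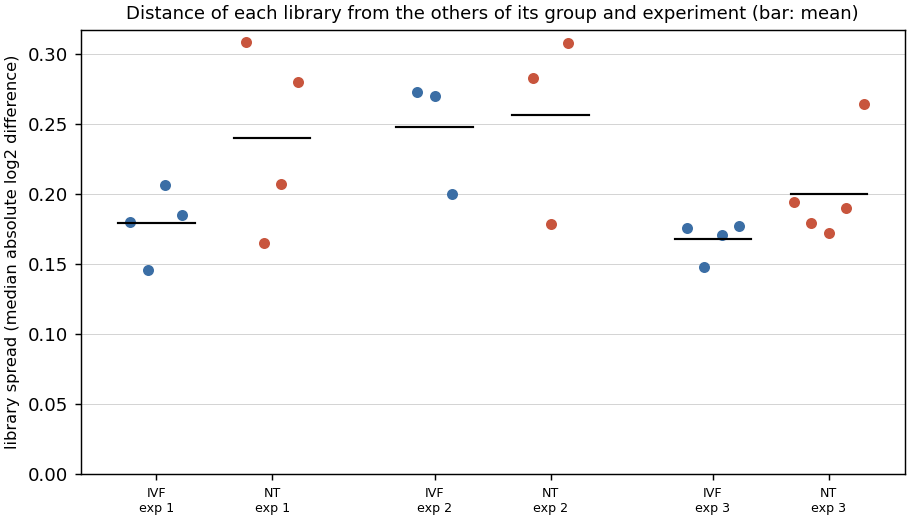
Spread of each library, the median absolute log2 difference from the other libraries of its group and experiment (IVF blue, NT red, bar at the mean). The NT means of 0.24, 0.256 and 0.2 lie above the IVF means of 0.179, 0.248 and 0.168, and the points overlap in each experiment.

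Most other measures of spread were larger in NT libraries too. edgeR's common coefficient of biological variation was 0.325 in NT and 0.246 in IVF libraries of experiment 1, 0.319 and 0.287 in experiment 2 and 0.33 and 0.238 in experiment 3. Pearson correlations of log2 CPM between libraries of experiment 1 had a median of 0.9541 within NT and 0.9675 within IVF. In experiment 3 the medians were 0.9482 and 0.966. In experiment 2 the order was reversed, with 0.9569 and 0.9545, while pairs of 1 NT and 1 IVF library there had a median of 0.9056, lower than the 0.9516 and 0.9519 of experiments 1 and 3. Of the summed variance of log2 CPM, 30.4% lay between experiments, 13.5% between NT and IVF, 10.9% in their interaction and 45.2% between libraries of 1 group and experiment. The parts were taken in this order and have 2, 1, 2 and 17 degrees of freedom. Each also holds some spread between libraries, so the shares are not compared as sizes of effects.

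Transcript by transcript, the SD within group and experiment had a median of 0.34 log2 units in NT and 0.291 in IVF libraries, and NT was the larger for 64.5% of the 24916 transcripts. The gap was wider for abundant transcripts. Above 100 CPM the medians were 0.202 and 0.142, while at or under 1 CPM, where counting error weighs most, they were 0.56 and 0.6. A ratio of variances differed for 42 transcripts (0.169%; F test, Benjamini-Hochberg), 30 more variable in NT and 12 less. At an unadjusted p under 0.05 the counts were 2240 and 684. On simulated data the F test recovered 21 of 200 transcripts made more variable, so 42 is not the number that differ. The 42 became 17 without NT 3-5 or without IVF 1-4, 20 without NT 2-1, 21 without IVF 3-2, 22 without IVF 1-1, 24 without IVF 1-2 or IVF 3-4, 26 without IVF 1-3 or IVF 3-3 and 27 without IVF 3-1. The excess of more variable transcripts in NT was lost without NT 3-5, with 8 more and 9 less variable, and without IVF 3-2, with 10 more and 11 less.

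For the first transcripts by this test NT 3-5 stood far below the other NT libraries. XBmRNA64517 (gene XBXL10_1g34204) had 177, 151, 143, 150 and 1.03 CPM in NT 3-1 to NT 3-5, while the IVF libraries of that experiment held 141, 150, 197 and 180 CPM. In experiment 1 it had 61.3 CPM in NT 1-1 and 222 to 347 CPM in the other NT libraries. In experiment 2 it had 66.4, 109 and 108 CPM in NT libraries against 275, 242 and 255 CPM in IVF libraries. Its SD was 2.22 log2 units in NT and 0.185 in IVF libraries (adjusted p = 0.00131, F test across all transcripts with Benjamini-Hochberg adjustment). Without NT 3-5 the log2 ratio of the SDs was 1.95 in place of 3.58 and the adjusted p was 0.179.

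XBmRNA64558 (gene XBXL10_1g34225) is far more abundant, with 2280 to 3440 CPM in IVF libraries. It had 2150, 2360, 2260, 2110 and 102 CPM in NT 3-1 to NT 3-5, and 1370 CPM in NT 1-1 against 2250 to 2430 CPM in the other NT libraries of experiment 1. In experiment 2 it had 1520, 2390 and 2730 CPM. For both transcripts NT 1-1, NT 2-1 and NT 3-5 were the lowest NT libraries of their experiments. Its SD was 1.36 against 0.115 log2 units, with the same adjusted p, and without NT 3-5 the log2 ratio was 1.52 in place of 3.56 and the adjusted p 0.309.

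Single libraries departed from their group in transcripts that recurred elsewhere. Among 15200 transcripts with a mean of at least 5 CPM, those at least 4-fold above or below the mean of the other libraries of the same group and experiment numbered 66 to 389 per NT library (median 133.5) and 29 to 237 per IVF library (median 93). The highest totals belonged to NT 3-5, with 213 higher and 176 lower, and NT 1-1, with 180 higher and 190 lower. Among fertilised libraries IVF 3-3 led with 220 higher and 17 lower. The limit of 4-fold and the sets below were chosen after the values were seen, and carry no test.

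The higher transcripts of IVF 1-3, NT 1-1 and IVF 3-3 were to a large extent the same, although these libraries differ in group or experiment and their reference libraries do not overlap. IVF 1-3 and IVF 3-3 shared 118, which is 72.4% of the 163 of the former and 53.6% of the 220 of the latter, where 1.07% and 1.45% of all 15200 transcripts were higher. IVF 1-3 and NT 1-1 shared 110, or 67.5% and 61.1%, and NT 1-1 and IVF 3-3 shared 107, or 59.4% and 48.6%. Such sharing was not particular to these 3 libraries. Of the 81 higher transcripts of NT 2-2, 62 (76.5%) were among the 220 of IVF 3-3, as were 86 of the 154 lower ones of IVF 2-2 (55.8%). Other lists shared little with the higher list of IVF 3-3, such as the higher list of NT 2-1 with 2 of 60 (3.33%). In NT 3-1 the shift was downward: 104 of its 164 lower transcripts (63.4%) were among the 180 higher ones of NT 1-1.

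The 84 transcripts common to the 3 libraries were followed in the others. Their median log2 deviation was 2.88 in IVF 1-3, 3.19 in NT 1-1 and 2.68 in IVF 3-3, which chose them. A library of the same group and experiment as one of these is set against it and so is pushed down by the choice. In the 11 libraries free of this the median ran from -2.8 in NT 3-1 to 1.87 in NT 3-4, and from -0.89 to 1.02 in the IVF libraries of experiment 2, beside medians of -0.04 to 0.03 over all transcripts. The median log2 difference of donor endoderm from IVF ectoderm was -1.79 over the set, with 50 of the 84 at least 2-fold lower and 19 at least 2-fold higher. Over all 15200 transcripts the median was -0.04, with 3882 at least 2-fold lower and 3291 at least 2-fold higher. The pooled NT effect of the set, to which the libraries that chose it contribute, had a median log2 fold change of 0.87, and 10 of the 84 were called higher and 0 lower, beside 2593 and 3070 of all 15200.

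A second set of 59 transcripts was at least 4-fold lower in both NT 1-1 and NT 3-5, libraries of different experiments. These are 31.1% of the lower transcripts of NT 1-1 and 33.5% of those of NT 3-5. Of all 15200 transcripts, 1.25% were lower in NT 1-1 and 1.16% in NT 3-5. XBmRNA64517 belongs to the set. The median log2 deviation was -2.85 and -2.82 in these libraries. In the 14 libraries that are not set against either of them it lay between -1 in IVF 1-3 and 0.81 in IVF 3-4. The median log2 difference of donor endoderm from IVF ectoderm was -2.19, and 43 of the 59 were at least 2-fold lower there and 3 at least 2-fold higher. The pooled test called 32 of the 59 lower in NT ectoderm and 0 higher, beside 3070 and 2593 of all 15200, a count to which the libraries that chose the set contribute. Whether fewer cells of a type or less RNA per cell lay behind such a library cannot be told apart in bulk tissue.

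**Figure D5:**
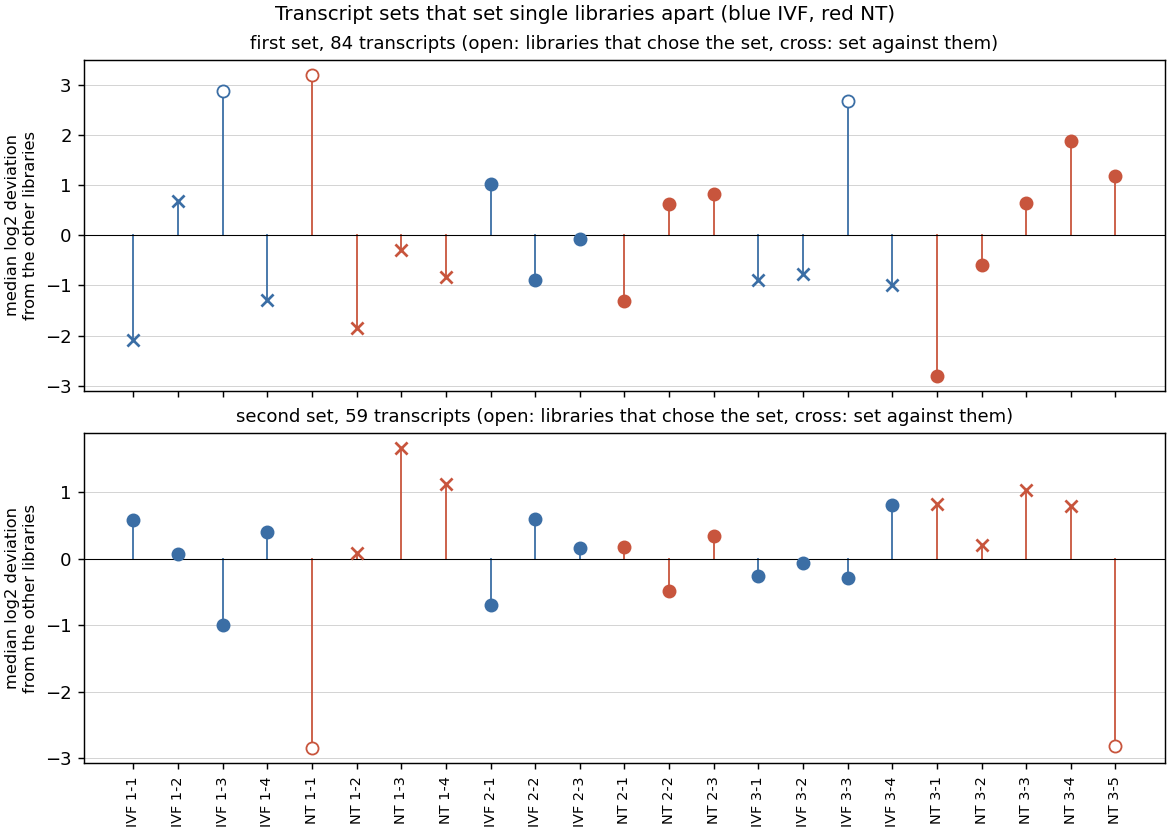
Median log2 deviation of both transcript sets in each library from the other libraries of its group and experiment, with IVF in blue, NT in red open circles for the libraries that chose the set and crosses for those set against them. Among the filled points the first set of 84 transcripts runs from -2.8 in NT 3-1 to 1.87 in NT 3-4. The second set of 59 transcripts, chosen for low values in NT 1-1 and NT 3-5, runs from -1 in IVF 1-3 to 0.81 in IVF 3-4.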

How the data were processed

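Poly(A) RNA of stage 11 ectoderm was read in 12 NT and 11 IVF libraries. The authors deposited abundance tables per library, whose expected counts (unscaled estimated reads per target) and target lengths in bases, an other kind of value, were used; kallisto 0.48 is named in the submitters' processing notes, and the target set and its filters are not given in the sources used here. The deposited expected counts were made whole by rounding. They were fitted with edgeR 4.0.16 (R 4.3.3): filterByExpr, TMM scaling, quasi-likelihood F tests, two-sided, Benjamini-Hochberg adjustment over all transcripts tested, calls at an adjusted p-value of 0.05. The main fit had the experiment number as a block. The number pairs the groups: NT and IVF deviations of the same experiment correlated at 0.572, 0.326 and 0.559. Levels are CPM after TMM, and log2 CPM has a prior count of 2. Other fits were run within each experiment and with an interaction term.

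Library spread was tested with an exact permutation of labels within experiments, with the spread values not computed anew for each arrangement. Spread per transcript was to be tested with limma on absolute deviations. On simulated data with 200 transcripts made more variable, limma recovered 72 and also called 51 unchanged ones. An F test of the ratio of the within-group variances recovered 21 and called 0 unchanged ones. The F test was used instead, although it missed most of the 200, and limma 3.58.1 is an alternative. The simulated data held no library made to stand apart, while single libraries changed the calls in the real data. The 0 therefore does not give the rate of false calls there. Sums per gene could not be made because the tables do not map targets to genes, and only targets of the companion series' list of 1 transcript per gene were used in their place. DESeq2 1.42.0 was an alternative to edgeR.

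Named transcripts were the first 2 higher and 2 lower by pooled p with an absolute log2 fold change of at least 1, a mean of at least 5 CPM and an unadjusted p under 0.05 in the same direction in each experiment, and the first 2 by p of the interaction and of the variance ratio at that level. Target sequences near in kind (gene copies, isoforms) share reads, so the value of 1 target among such copies is uncertain. The comparison, lists and rules were chosen with earlier results of these data known. Lists of marker genes by symbol could not be applied. No 2 libraries of a group agreed within sampling noise. The total counts of 10352221 to 24923622 limit the precision of low transcripts.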

Additional observations from a re-analysis of the deposited data

Results flagged for a closer look

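The IVF and NT groups of experiments 1 and 3, of 4 or 5 libraries each, were checked for a single distant library, in 48 checks. Experiment 2, with 3 libraries per group, was not checked. The values checked were total counts, share of ribosome-sized targets, spread, score and the levels of the named transcripts. Of the 48 checks 6 marked a distant library, and chance marks about 1 check in 20. The checks share libraries and so depend on one another. XBmRNA64517 and XBmRNA64558 were chosen for their spread in these same libraries, so their marks follow from that choice. The 6 are therefore not compared with the chance rate. NT 1-2 was deeper than the other NT libraries of experiment 1, with 24923622 counts. IVF 3-1 had 17.39% of its counts in ribosome-sized targets. NT 3-5 had the largest spread of the NT libraries of experiment 3, at 0.2639, and stood apart for XBmRNA64517 at 1.03 CPM and XBmRNA64558 at 102 CPM. NT 1-1 stood apart for XBmRNA64558 at 1370 CPM.

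The NT effect differed between the 3 experiments for 2201 transcripts by the interaction test. The named ones among them are XBmRNA63270 (edgeR adjusted p = 1.47e-06) and XBmRNA30760 (edgeR adjusted p = 2.04e-06).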

How the results depend on the processing

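The pooled call of the 4 named transcripts held in every omission of 1 library. They were chosen for their pooled p in these same libraries, so little else was possible and this is a description. The pooled count was 5671 with no replicate block (3147 higher, 2524 lower), 6488 to 8515 over omissions of 1 library, 4553 without experiment 2, 4876 without experiment 3 (3021 higher, 1855 lower) and 4169 on targets of the 1-transcript-per-gene tables. With those targets alone, experiments 1, 2 and 3 called 261, 3242 and 473 transcripts, the interaction 1348 and the variance ratio 18, since fewer targets were tested. DESeq2 called 1791 transcripts in experiment 1, 3006 in experiment 3 and 3647 in the interaction. With no filter on low counts the interaction called 1256 and experiment 3 called 456, and Spearman's rho between NT effects fell to 0.158, 0.164 and 0.179 for experiments 1 and 2, 1 and 3, and 2 and 3. Thinned to the shallowest library, experiment 3 called 599 and the variance ratio 20. Without both NT 1-1 and IVF 3-1, a choice made after the data were seen, experiment 1 called 287, experiment 3 called 309 and the variance ratio 23.

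Over omissions of 1 library rho ran from 0.221 to 0.515, 0.31 to 0.502 and 0.372 to 0.472 in these pairs, and the counts ran from 8 to 669 in experiment 1, from 1685 to 6036 in experiment 2, from 90 to 1680 in experiment 3, from 479 to 3840 for the interaction and from 17 to 50 for the variance ratio. The variance ratio called 2, 16 and 1 transcripts without experiment 1, 2 and 3, and limma on absolute deviations called 97. For XBmRNA64517 the adjusted p of the F test was 0.108 without experiment 1 and 0.325 without experiment 3, with log2 ratios of the SDs of 3.82 and 2.52, and for XBmRNA64558 0.108 and 0.494, with ratios of 3.57 and 1.71.

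The difference in library spread was 0.0364 (exact permutation p = 0.0365) with 10 counts in every library, 0.0388 (exact permutation p = 0.0275) at 10 CPM or more, 0.0272 (exact permutation p = 0.035) with no filter, 0.0375 (exact permutation p = 0.0288) after thinning and 0.0439 (exact permutation p = 0.0345) without experiment 2. The p stayed above 0.05 with 1 minus Spearman's coefficient as the measure (exact permutation p = 0.113), without experiment 1 (0.0186, exact permutation p = 0.277) and without experiment 3 (0.0394, exact permutation p = 0.167), with a prior count of 0.5 (exact permutation p = 0.0634), without the ribosome-sized targets (exact permutation p = 0.0598), on the 1-transcript-per-gene targets (exact permutation p = 0.0626) and without both NT 1-1 and IVF 3-1 (0.0223, exact permutation p = 0.133). Over omissions of 1 library it ran from 0.023 to 0.0439 (exact permutation p 0.00425 to 0.161). With no minimum fold change the lists looked up in experiment 2 had medians of 1.13 and -0.39. With all shared identifiers the A486 medians were 0.4 and -0.66, with no median over all transcripts beside them. The cause of these changes was not tested. Sums per gene were not run.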
